A study of Homo sapiens with 16 samples.

Results

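The 34 genes described here were the transcription factor NRF2 (gene NFE2L2), its inhibitor KEAP1 and 32 genes commonly counted among its targets, which make glutathione, reduce thioredoxin and peroxides, supply NADPH, reduce quinones and carbonyls, store iron and export conjugates. They were chosen as a named list of symbols, without use of their measured values in the rule. Earlier results of these data were known when the list was chosen. All 34 were found by symbol among the 42351 genes of the deposited table. All 34 also passed the filter on low counts that left 15067 genes for testing.

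NRF2 is held by KEAP1 in resting cells, and a ubiquitin ligase built on CUL3 then marks it for degradation. Electrophiles or oxidants modify KEAP1, NRF2 accumulates, pairs with a small MAF protein and binds antioxidant response elements near its targets, where BACH1 can compete with it. Loss of KEAP1 function or gain of NRF2 function keeps the programme on in part of lung cancers, and A549 is known as a KEAP1-mutant line. Much of this control acts on the NRF2 protein, which was not measured, so the values below are transcript levels.

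RNA was sequenced from A549, a lung adenocarcinoma line with wt MET, and from NCI-H596, a lung adenosquamous line whose MET lacks exon 14 (MET∆14), after 0, 3, 6 or 12 h of hepatocyte growth factor (HGF), the ligand of MET. Cells were deprived of serum for 12 h beforehand according to the labels (the study's methods give a longer period for HGF treatments), and each of the 8 conditions had 2 biological replicates, which gives 16 libraries. Each MET status is thus 1 cell line, and the line and the MET status cannot be told apart. The labels name A549, whereas the paper's text introduces EKVX as its wt line and does not say which line gave the RNA. Time in culture and time with HGF cannot be told apart either, because 0 h is the only time without HGF.

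Library totals ranged from 13226488 to 21970052 counts for wt MET and from 10158590 to 23909304 for MET∆14. CDKN2A, which A549 is known to lack, had 0 counts in all wt MET libraries, and the squamous markers (KRT5, KRT6A, KRT14, TP63, DSG3 and SOX2) summed to 1.51 to 2.99 CPM there against 2653 to 3031 CPM in NCI-H596. The adenocarcinoma markers NKX2-1 and NAPSA stayed near 1 CPM or below in the wt MET line at 0 h and 12 h, and SFTPB was at 0 counts in both lines, so that this set held mainly KRT7. The 6 markers of other cell types summed to 138 to 155 CPM with wt MET, mostly ACTA2, and 151 to 187 CPM with MET∆14, mostly CD68, and PTPRC and COL1A2 among them had at most 2 and 3 counts in any library. CPM is a gene's read count relative to the size of its library, scaled by edgeR's TMM factors. The replicates of MET∆14 at 12 h differed more than any other pair, with a chi-square per degree of freedom of 34.07 against 2.753 for wt MET at 6 h, and replicate 2 correlated best with replicate 2 of 6 h (0.9868) rather than with its own partner (0.9816). These are bulk samples, in which fewer cells of a kind and less RNA per cell cannot be told apart.

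Of the 34 genes, 24 had a window around a transcript start in the RefSeq promoter table (GRCh38.p14), each with 250 bases before and 50 after the start, and some genes had several, which gives 31 windows. The letters TGACNNNGC, the core of the antioxidant response element, were searched on both strands and were present in 10 of the 31 windows (32.3%), against 4687 of all 35116 windows (13.3%). The AP-1 letters TGACTCA, which can lie within such a core, were present in 3 of the 31 (9.68%) and in 4.95% of all windows. The windows of 3 genes with a TGACNNNGC match are shown as examples: TXNRD1 and GCLM were higher after 3 h of HGF with MET∆14, and GPX2 had the largest mean fall with wt MET. Of the other genes higher at 3 h with MET∆14, NQO1, SRXN1, UGDH and OSGIN1 had windows without this match, and SLC7A11 had no window. A link between match and response was not tested. Each is printed along its gene's direction, and capitals mark the TGACNNNGC matches. Matches on the other strand appear as the reverse complement of these letters.
TXNRD1, chr12:104215529-104215828, plus strand: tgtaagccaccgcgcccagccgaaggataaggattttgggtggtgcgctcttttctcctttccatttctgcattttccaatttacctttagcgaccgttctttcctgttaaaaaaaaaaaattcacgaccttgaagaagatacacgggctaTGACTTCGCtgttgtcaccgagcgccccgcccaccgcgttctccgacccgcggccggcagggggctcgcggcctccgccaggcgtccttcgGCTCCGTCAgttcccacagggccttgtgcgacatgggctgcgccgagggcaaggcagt
TXNRD1, chr12:104286782-104287081, plus strand: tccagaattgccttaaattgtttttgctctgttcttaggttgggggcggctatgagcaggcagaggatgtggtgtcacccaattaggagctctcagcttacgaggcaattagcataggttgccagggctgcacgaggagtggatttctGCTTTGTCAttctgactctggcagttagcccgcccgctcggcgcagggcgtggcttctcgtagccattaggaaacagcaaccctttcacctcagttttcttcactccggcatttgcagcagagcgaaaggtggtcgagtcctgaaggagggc
GCLM, chr1:93909381-93909680, minus strand: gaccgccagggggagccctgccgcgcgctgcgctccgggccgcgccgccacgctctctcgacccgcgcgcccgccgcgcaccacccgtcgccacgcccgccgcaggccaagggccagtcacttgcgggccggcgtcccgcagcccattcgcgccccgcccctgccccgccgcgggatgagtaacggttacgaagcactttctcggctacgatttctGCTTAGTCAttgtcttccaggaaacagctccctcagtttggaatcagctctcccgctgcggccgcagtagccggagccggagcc
GPX2, chr14:64942696-64942995, minus strand: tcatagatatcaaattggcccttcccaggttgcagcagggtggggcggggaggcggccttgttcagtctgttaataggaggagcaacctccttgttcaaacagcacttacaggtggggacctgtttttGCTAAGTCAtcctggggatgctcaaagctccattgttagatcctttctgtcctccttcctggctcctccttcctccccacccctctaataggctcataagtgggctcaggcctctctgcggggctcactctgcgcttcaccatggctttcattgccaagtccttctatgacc
The first TXNRD1 window held matches that began 99 and 8 bases before the start, the second held 1 at 102 bases before it, GCLM 1 at 34 and GPX2 1 at 122. Other genes of the list with a match were CBR1, EPHX1, KEAP1, ME1, PGD and PIR, which makes 9 genes. A match of these letters describes the window and says nothing of binding. The genes without a window in the table were SLC7A11, HMOX1, ABCC1, ABCC3, AKR1B10, CBR3, GSR, FTH1, ALDH3A1 and PRDX1.

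Before HGF, most of the list stood lower in cells expressing MET∆14 than in cells expressing wt MET. In edgeR's quasi-likelihood test (adjusted p under 0.05, Benjamini-Hochberg over all 15067 genes), 20 of the 34 genes were lower, 8 were higher and 6 were not called (GCLC, TXN, SLC7A11, PGD, TALDO1 and ABCC1). The lines differed broadly, with 39.6% of all tested genes lower and 40.6% higher, so a call between them is common. The median log2 difference (MET∆14 minus wt MET) was -0.58 over the 34 genes and 0.015 over all genes.

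Per kilobase of the canonical transcript, the highest levels at 0 h with wt MET were those of the ferritin chains FTL and FTH1 (3209 and 1487 CPM per kb), followed by thioredoxin reductase TXNRD1 (589), the aldehyde dehydrogenase ALDH3A1 (552) and the quinone reductase NQO1 (518). With MET∆14 the order per kilobase began with FTL (1139), FTH1 (976), the peroxiredoxin PRDX1 (428) and thioredoxin TXN (301). At the lower end stood the carbonyl reductase CBR3 (1.25) and pirin, PIR (8.41), with wt MET, and heme oxygenase HMOX1 (3.25) and the exporter ABCC2 (4.4) with MET∆14.

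ABCC2, which exports glutathione and glucuronide conjugates, showed the largest deficit in the MET∆14 line, with 25.2 and 25.9 CPM in its replicates against 511 and 429.8 with wt MET (log2 difference -4.20 ± 0.14, SE, adjusted p = 8.18e-13). HMOX1, which breaks down heme, was at 4.5 and 5.61 CPM against 46.9 and 48.6 (-3.22 ± 0.17, adjusted p = 1.35e-10). TXNRD1 was at 261 and 273 CPM against 2334 and 2212 (-3.09 ± 0.091, adjusted p = 2.07e-13). In none of these 3 genes did the libraries of the lines come close to each other. UGDH, which makes UDP-glucuronic acid, followed with a log2 difference of -2.97 ± 0.087, adjusted p = 2.02e-13, and the classic NRF2 target NQO1 with -2.47 ± 0.13, adjusted p = 1.43e-10.

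The 8 genes that were higher with MET∆14 were the regulators NFE2L2 and KEAP1, the reductases AKR1C1, CBR1 and CBR3, pirin, the epoxide hydrolase EPHX1 and PRDX1. CBR3 had 20.6 and 19.3 CPM with MET∆14 and 0.868 and 1.63 with wt MET (log2 difference 3.99 ± 0.25, adjusted p = 6.21e-10), and EPHX1 had 420.2 and 379 against 59.8 and 38.1 (3.03 ± 0.17, adjusted p = 4.49e-10). AKR1C1 was at 402 and 398 CPM against 127 and 85.3 (1.92 ± 0.18, adjusted p = 1.34e-07), whereas its neighbours AKR1C2 and AKR1C3 were lower with MET∆14 (-1.34 and -1.35 on the log2 scale). These 3 steroid and carbonyl reductases lie side by side on chromosome 10 and share sequence: 47.3% of the 50-base stretches of AKR1C2 also occur in other genes, 22.7% of AKR1C1 and 18.6% of AKR1C3, so their split is uncertain. Summed, they stood at 856 ± 22.6 CPM (SD, n = 2) with MET∆14 and 1263 ± 264 CPM with wt MET, a log2 difference of -0.56 ± 0.17 (SE, adjusted p = 0.00722). For CBR3, 71.1% of the exon bases are covered by a gene on the other strand, and how the counting treated strand is not given in the sources used here.

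**Figure D1:**
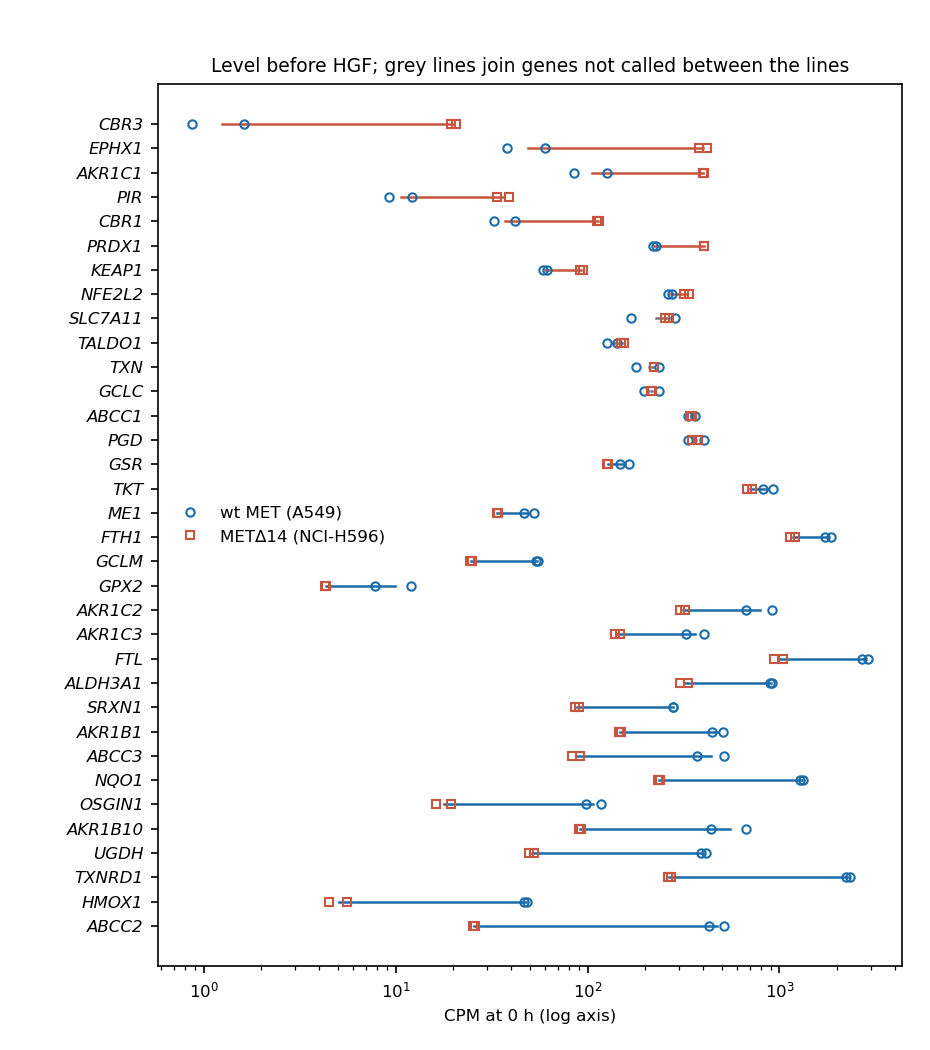
Level of each of the 34 genes at 0 h in CPM on a log axis, with circles for the 2 wt MET libraries and squares for the 2 MET∆14 libraries, and a line that joins the means (red, higher with MET∆14; blue, lower; grey, not called). From CBR3 at the top to ABCC2 at the bottom, 8 red, 6 grey and 20 blue lines can be counted.

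HGF was followed by a broad decline of the list by 12 h in both lines, but the way there differed. With wt MET, 7 of the 34 genes had fallen at 3 h, 22 at 6 h and 26 at 12 h, while 3, 2 and 1 had risen. With MET∆14, 7 had risen and 3 had fallen at 3 h, 4 had risen and 9 fallen at 6 h, and at 12 h 30 had fallen and 0 had risen. Over all tested genes, the share called lower with wt MET was 7.16% at 3 h, 17.8% at 6 h and 18.2% at 12 h, and the share called higher 10.3%, 16.4% and 16.9%. With MET∆14 the corresponding shares were 16.1%, 22.5% and 20.1% lower and 15.5%, 21.6% and 18.3% higher.

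The medians followed the same course. The median log2 fold change of the 34 genes with wt MET was -0.23 at 3 h, -0.50 at 6 h and -0.57 at 12 h, beside -0.044, -0.053 and -0.0019 over all genes. With MET∆14 it was 0.12, -0.11 and -0.69, beside -0.053, -0.039 and -0.024 over all genes. At 3 h, 26 of the 34 genes had a positive fold change with MET∆14 and 7 with wt MET, most of them short of the test. Mean CPM was lower at each later time than at the one before for 20 genes with wt MET and for 7 with MET∆14. Shares over all tested genes were not taken for these counts of signs and of steady falls.

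As a share of all counts, the 34 genes took 1.64 ± 0.096% (SD, n = 2) with wt MET at 0 h, 1.34 ± 0.013% at 3 h, 1.15 ± 0.0063% at 6 h and 1.07 ± 0.043% at 12 h. With MET∆14 the share was 0.897 ± 0.022% at 0 h, 1.01 ± 0.017% at 3 h, 0.796 ± 0.081% at 6 h and 0.570 ± 0.093% at 12 h. The 2 libraries of MET∆14 at 12 h held 0.505% and 0.636%, both below every other library.

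Tested over the 3 times together, 27 of the 34 genes changed with wt MET (40.3% of all tested genes) and 32 with MET∆14 (54.1%). No call was made for HMOX1, ME1, ABCC1, ABCC3, CBR3, FTL and FTH1 in the wt MET line or for TXN and ABCC3 in the MET∆14 line. At 12 h, 23 genes were called lower in both lines, each against the 0 h libraries of its own line, beside 6.78% of all tested genes.

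**Figure D2:**
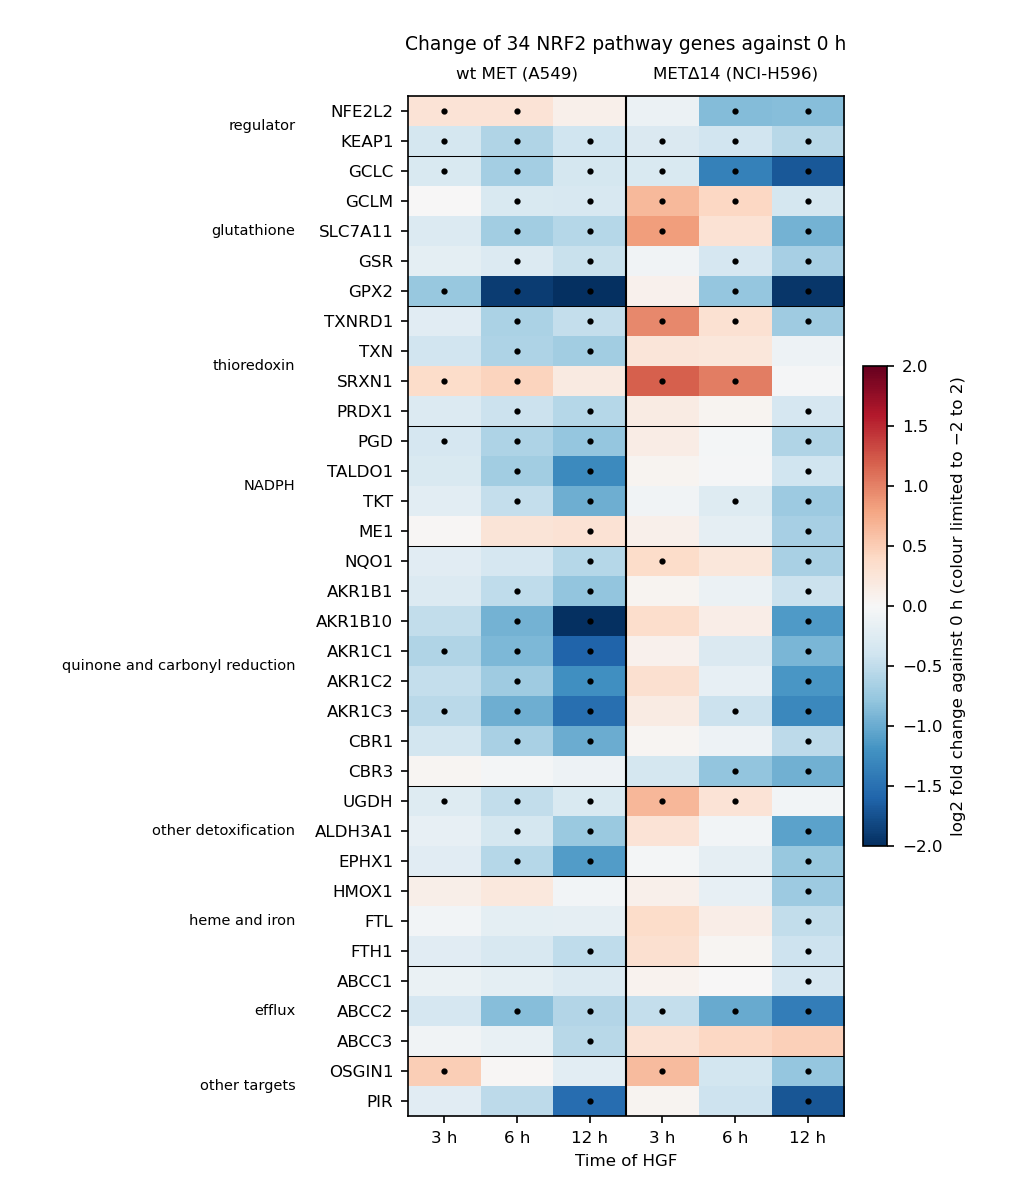
Log2 fold change against 0 h of the 34 genes (rows, grouped by role) at 3, 6 and 12 h in cells expressing wt MET (left) and MET∆14 (right), with red for higher, blue for lower and a dot where the adjusted p was under 0.05. On the left, blue cells with dots increase from 7 at 3 h to 26 at 12 h, and on the right 7 red cells carry dots at 3 h and none at 12 h.

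Of the regulators, NFE2L2 moved in opposite directions in the lines at 6 h. With wt MET its libraries were at 261 and 274 CPM at 0 h, 318 and 327 at 3 h, 328 and 317 at 6 h and 286 and 287 at 12 h. The gene rose at 3 h (log2 fold change 0.27 ± 0.074, adjusted p = 0.021) and at 6 h (0.27 ± 0.074, adjusted p = 0.0111). With 1 library left out, these values ranged from 0.23 to 0.30 at 3 h and from 0.23 to 0.32 at 6 h. At 12 h with wt MET it was not called (0.098 ± 0.074, adjusted p = 0.334). With MET∆14 the NFE2L2 libraries were at 339 and 320.0 CPM at 0 h, 311 and 297 at 3 h, 186 and 176 at 6 h and 185 and 179 at 12 h. The gene fell at 6 h (-0.86 ± 0.075, adjusted p = 3.6e-07) and 12 h (-0.86 ± 0.075, adjusted p = 9.43e-07). The 6 h and 12 h libraries of MET∆14 lay far below those of 0 h and 3 h, and the wt MET libraries of 3 h and 6 h lay above all of theirs at 0 h. The difference of the responses (MET∆14 minus wt MET) was -1.13 ± 0.11, adjusted p = 2.11e-06 at 6 h. Genes on the other strand cover 24.8% of the exon bases of NFE2L2, and genes on its own strand 13.6%.

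KEAP1, the substrate adaptor that presents NRF2 for degradation, fell in both lines. Its levels with wt MET were 58.3 and 61.6 CPM at 0 h, 49.5 and 44.3 at 3 h, 41.4 and 37.8 at 6 h and 45.9 and 44.8 at 12 h. The largest fall was at 6 h (-0.60 ± 0.10, adjusted p = 0.00048). Those with MET∆14 were 94.2 and 91.3 CPM at 0 h, 76.1 and 76.1 at 3 h, 74.3 and 67.9 at 6 h and 56.4 and 70.6 at 12 h. The largest fall was at 12 h (-0.55 ± 0.10, adjusted p = 0.00058). All later libraries lay below the 0 h libraries of their line. The call at 3 h with MET∆14 (-0.29 ± 0.10, adjusted p = 0.0404) was lost in 8 of the 16 fits that left out 1 library and in each other setting tried, with adjusted p from 0.0514.

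Among the glutathione genes, the subunits of glutamate-cysteine ligase, the rate-limiting enzyme of glutathione synthesis, moved apart with MET∆14. The catalytic subunit GCLC was at 216 and 214 CPM at 0 h, 171 and 176 at 3 h, 90.6 and 78.4 at 6 h and 66 and 66.2 at 12 h there, and it fell at 3 h (-0.31 ± 0.09, adjusted p = 0.0168, a call that 10 of 16 fits without 1 library kept), 6 h (-1.35 ± 0.093, adjusted p = 3.9e-08) and 12 h (-1.70 ± 0.095, adjusted p = 2.56e-08). The modifier subunit GCLM was at 24.5 and 25 CPM at 0 h, 37.3 and 40.3 at 3 h, 32.9 and 32.9 at 6 h and 20.0 and 18.9 at 12 h. It rose at 3 h (0.65 ± 0.093, adjusted p = 7.98e-05) and 6 h (0.41 ± 0.093, adjusted p = 0.00236) before it fell at 12 h (-0.35 ± 0.098, adjusted p = 0.0114). At 6 h the GCLC libraries were below, and the GCLM libraries above, all 0 h libraries of this line.

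With wt MET, GCLC stood at 235 and 198 CPM at 0 h, 170.5 and 181 at 3 h, 138 and 132 at 6 h and 166 and 174 at 12 h. It fell at 3 h (-0.30 ± 0.091, adjusted p = 0.0339, a call kept in 8 of 16 such fits), 6 h (-0.68 ± 0.091, adjusted p = 5.18e-05) and 12 h (-0.35 ± 0.09, adjusted p = 0.00764), and the response of GCLC at 12 h differed between the lines by -1.35 ± 0.13, adjusted p = 6.35e-06. GCLM stood at 53.8 and 55.4 CPM at 0 h, 51.1 and 59.1 at 3 h, 43.3 and 45.2 at 6 h and 45 and 42 at 12 h with wt MET and was lower at 6 h (-0.31 ± 0.089, adjusted p = 0.0157) and 12 h (-0.33 ± 0.089, adjusted p = 0.0104). Its 3 h libraries spanned those of 0 h.

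SLC7A11, the cystine importer that feeds glutathione synthesis, showed a transient peak with MET∆14. Its libraries there were at 265 and 252 CPM at 0 h, 483 and 445 at 3 h, 330.2 and 299.7 at 6 h and 151 and 118 at 12 h. SLC7A11 rose at 3 h (0.84 ± 0.18, adjusted p = 0.00252) and fell at 12 h (-0.94 ± 0.18, adjusted p = 0.0011). With wt MET they were at 285 and 168 CPM at 0 h, 181 and 196 at 3 h, 134 and 145 at 6 h and 154 and 150.1 at 12 h. The 2 wt MET replicates at 0 h lay far apart, and the calls there at 6 h (-0.70 ± 0.18, adjusted p = 0.00909) and 12 h (-0.57 ± 0.18, adjusted p = 0.0238) were lost without replicate 1 of 0 h, with a log2 fold change of -0.15 at 12 h, a time at which 11 of the 16 fits without 1 library kept the call. The response at 3 h differed between the lines by 1.11 ± 0.25, adjusted p = 0.00771.

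GPX2, a selenium-dependent glutathione peroxidase of epithelia, fell furthest of the list with wt MET, from 12.1 and 7.78 CPM at 0 h to 6.01 and 5.66 at 3 h, 2.36 and 2.96 at 6 h and 0.858 and 1.01 at 12 h (log2 fold change at 12 h -3.41 ± 0.28, adjusted p = 8.34e-07). In the MET∆14 line it went from 4.3 and 4.32 CPM over 5.46 and 3.79 and 2.4 and 2.61 to 0.985 and 1.3 (-1.95 ± 0.30, adjusted p = 0.000137). The 12 h libraries rested on 18 and 15 counts with wt MET and 18 and 14 with MET∆14. Each of them lay below every 0 h, 3 h and 6 h library of its line. Glutathione reductase, GSR, also fell at 12 h, with log2 fold changes of -0.44 with wt MET and -0.67 with MET∆14.

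Of the 4 thioredoxin genes, TXNRD1 and SRXN1 rose at 3 h with MET∆14, and TXN and PRDX1 were not called there (adjusted p = 0.234 and 0.254). TXNRD1, which recycles thioredoxin with NADPH, went with MET∆14 through 261 and 273 CPM at 0 h, 514 and 521 at 3 h, 346 and 316 at 6 h and 157 and 169 at 12 h. It rose at 3 h (0.96 ± 0.085, adjusted p = 8.12e-07) and 6 h (0.31 ± 0.085, adjusted p = 0.00782) and was below its start at 12 h (-0.71 ± 0.086, adjusted p = 1.7e-05). With wt MET it went through 2334 and 2212 CPM at 0 h, 1922 and 1954 at 3 h, 1490.5 and 1456 at 6 h and 1631 and 1633 at 12 h. It fell at 6 h (-0.63 ± 0.084, adjusted p = 5.31e-05) and 12 h (-0.48 ± 0.084, adjusted p = 0.00052). The libraries of MET∆14 rose above, and those of wt MET stayed below, the 0 h libraries of their line at 3 h and 6 h. At the peak the MET∆14 libraries were still far below any wt MET library. The difference of the responses was 1.19 ± 0.12, adjusted p = 8.31e-06 at 3 h.

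SRXN1, sulfiredoxin, which restores overoxidised peroxiredoxins, rose in both lines. With MET∆14 it was at 86 and 90.2 CPM at 0 h, 205 and 198 at 3 h, 191 and 168 at 6 h and 76 and 98.2 at 12 h. It rose at 3 h (1.19 ± 0.11, adjusted p = 7.55e-07) and 6 h (1.02 ± 0.11, adjusted p = 2.05e-06) and was not called at 12 h (-0.02 ± 0.11, adjusted p = 0.903). With wt MET it was at 279 and 278 CPM at 0 h, 351 and 367 at 3 h, 365 and 394 at 6 h and 318 and 317 at 12 h. It rose at 3 h (0.37 ± 0.10, adjusted p = 0.0229) and 6 h (0.44 ± 0.10, adjusted p = 0.00374). The rise at 3 h was larger with MET∆14 by 0.83 ± 0.15, adjusted p = 0.00116. A gene on the same strand, ENSG00000270299, covers most of the SRXN1 exons, and 90.6% of the 50-base stretches of SRXN1 occur in it, so the counts of SRXN1 are uncertain.

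Thioredoxin itself, TXN, was lower with wt MET at 6 h (-0.62 ± 0.15, adjusted p = 0.00558) and 12 h (-0.69 ± 0.15, adjusted p = 0.00266), where its libraries went through 179.6 and 236 CPM at 0 h, 165 and 155 at 3 h, 137 and 134 at 6 h and 129 and 128 at 12 h. With MET∆14 the levels were 221 and 223 CPM at 0 h, 258 and 267 at 3 h, 269.5 and 247 at 6 h and 166 and 248 at 12 h, and no time was called. The 12 h replicates of MET∆14 lay on either side of those of 0 h. Genes on the other strand cover 29.8% of the exon bases of PRDX1, whose peroxiredoxin is a substrate of thioredoxin. PRDX1 fell at 12 h in both lines (log2 fold changes of -0.57 with wt MET and -0.34 with MET∆14). With 1 library left out, that of PRDX1 with MET∆14 ranged from -0.53 to -0.17, and 11 of the 16 fits kept the call.

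Among the genes grouped under NADPH, the pentose phosphate genes PGD, TALDO1 and TKT fell at 12 h in both lines. Their log2 fold changes were -0.78, -1.28 and -0.97 with wt MET and -0.60, -0.39 and -0.73 with MET∆14. With 1 library left out, that of TALDO1 with MET∆14 ranged from -0.62 to -0.19, and 12 of the 16 fits kept the call. Malic enzyme, ME1, went with wt MET through 52.3 and 46.7 CPM at 0 h, 46.3 and 54.2 at 3 h, 55.9 and 62.7 at 6 h and 62.2 and 58.6 at 12 h. It rose at 12 h (0.29 ± 0.10, adjusted p = 0.0439). In the MET∆14 line it went through 33.7 and 34.1 CPM at 0 h, 35.5 and 37.2 at 3 h, 32.4 and 27.8 at 6 h and 20.6 and 22.5 at 12 h. It fell at 12 h (-0.66 ± 0.11, adjusted p = 0.000363). The difference at 12 h was -0.95 ± 0.15, adjusted p = 0.000469. The rise with wt MET was the only one of the 34 genes at 12 h, and it was kept in 8 of the 16 fits that left out 1 library.

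Of the reductases of quinones and carbonyls, NQO1, AKR1B1, AKR1B10, AKR1C1, AKR1C2, AKR1C3 and CBR1 fell at 12 h in both lines, and CBR3 with MET∆14. NQO1, which reduces quinones without a radical intermediate, had wt MET libraries at 1281 and 1332 CPM at 0 h, 1088 and 1139 at 3 h, 1023 and 1048 at 6 h and 833 and 932 at 12 h and a fall at 12 h (-0.57 ± 0.13, adjusted p = 0.00312). Its MET∆14 libraries were at 239 and 233 CPM at 0 h, 294 and 318 at 3 h, 305 and 249 at 6 h and 128 and 175 at 12 h. NQO1 rose at 3 h (0.37 ± 0.13, adjusted p = 0.038) and fell at 12 h (-0.64 ± 0.13, adjusted p = 0.00124). The 3 h libraries lay above and the 12 h libraries below those of 0 h. The rise at 3 h was lost in 7 of the 16 fits that left out 1 library. Genes on the other strand cover 19.4% of the exon bases of NQO1.

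AKR1B10, which reduces retinal and other aldehydes, fell furthest among the reductases with wt MET at 12 h. Its wt MET libraries were at 666 and 442 CPM at 0 h, 379 and 407 at 3 h, 268 and 308 at 6 h and 74 and 103 at 12 h, with -2.65 ± 0.23, adjusted p = 3.52e-06 at 12 h. Its MET∆14 libraries were at 90.1 and 92.1 CPM at 0 h, 107 and 125 at 3 h, 119.7 and 80.9 at 6 h and 36.6 and 47.6 at 12 h, with -1.13 ± 0.23, adjusted p = 0.00183 at 12 h. Both 12 h replicates lay below all others of their line. The response at 12 h was less deep with MET∆14 by 1.53 ± 0.32, adjusted p = 0.00356, from a level at 0 h that was already lower (-2.60 ± 0.23, adjusted p = 1.35e-07). Other genes share 17% of its 50-base stretches.

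AKR1C1 was at 127 and 85.3 CPM at 0 h, 69.6 and 69.6 at 3 h, 54 and 60.4 at 6 h and 31.6 and 38.9 at 12 h with wt MET. With MET∆14 it was at 402 and 398 CPM at 0 h, 416 and 433 at 3 h, 360.4 and 296 at 6 h and 181 and 245 at 12 h. AKR1C2 was at 919 and 666 CPM at 0 h, 582 and 551 at 3 h, 460.3 and 512 at 6 h and 299.6 and 376 at 12 h with wt MET. In the MET∆14 line it was at 322 and 304 CPM at 0 h, 383 and 402 at 3 h, 323 and 239 at 6 h and 109.9 and 171 at 12 h. AKR1C3, also a prostaglandin reductase, was at 404 and 325 CPM at 0 h, 257 and 243 at 3 h, 181 and 189 at 6 h and 123 and 135 at 12 h with wt MET. With MET∆14 it was at 148 and 138 CPM at 0 h, 155 and 164 at 3 h, 118 and 95.4 at 6 h and 47.6 and 70.4 at 12 h. In each of the 3 genes the 12 h libraries were the lowest of their line. Summed over the 3, whose shared sequence then matters less, the log2 fold change at 12 h was -1.33 ± 0.17 in the wt MET line (SE, adjusted p = 6.15e-05) and -1.05 ± 0.17 in the MET∆14 line (adjusted p = 0.000266). At 3 h the summed value was -0.51 (adjusted p = 0.0523) in the former and 0.19 (adjusted p = 0.43) in the latter, so the calls of AKR1C1 and AKR1C3 at 3 h with wt MET were not made for the sum.

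The aldo-keto reductase AKR1B1 and the carbonyl reductase CBR1 fell at 12 h with log2 fold changes of -0.80 and -0.99 with wt MET and -0.42 and -0.53 with MET∆14. For CBR1, 28.6% of the 50-base stretches also occur in an unnamed gene. Genes on the other strand cover 18.9% of its exon bases and genes on its own strand 15.6%, so its counts are uncertain. CBR3 was near 1 CPM throughout with wt MET and fell with MET∆14 from 20.6 and 19.3 CPM at 0 h to 8.76 and 12.1 at 12 h (-0.96 ± 0.18, adjusted p = 0.000826). Its 3 h libraries in between were at 14.9 and 16.4 CPM, and 6 h at 12.1 and 11. The direction with wt MET at 12 h could not be set, with a log2 fold change of -0.10 that became 0.43 without replicate 2 of 0 h.

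Among the other detoxification genes, UGDH rose with MET∆14 and fell with wt MET at 3 h and 6 h. Its libraries with MET∆14 were at 52.7 and 49.5 CPM at 0 h, 79.8 and 82 at 3 h, 65.6 and 57.5 at 6 h and 48.4 and 49.5 at 12 h. UGDH rose at 3 h (0.66 ± 0.085, adjusted p = 2.69e-05) and 6 h (0.27 ± 0.085, adjusted p = 0.0188). With wt MET it was at 414 and 388 CPM at 0 h, 324 and 344 at 3 h, 286 and 286 at 6 h and 316 and 334 at 12 h. It fell there at 3 h (-0.26 ± 0.08, adjusted p = 0.0328), 6 h (-0.49 ± 0.08, adjusted p = 0.000275) and 12 h (-0.30 ± 0.08, adjusted p = 0.00826). With 1 library left out, its log2 fold change at 3 h with wt MET ranged from -0.31 to -0.22. The 12 h libraries of MET∆14 had returned to the level of 0 h or just below. The difference at 3 h was 0.93 ± 0.12, adjusted p = 6.43e-05. ALDH3A1, which oxidises aromatic and fatty aldehydes, fell at 12 h in both lines (-0.75 with wt MET, -1.07 with MET∆14). EPHX1, which opens epoxides, went with wt MET through 59.8 and 38.1 CPM at 0 h, 43.9 and 39.6 at 3 h, 30.9 and 34.7 at 6 h and 22 and 22.9 at 12 h. In the MET∆14 line it went through 420.2 and 379 CPM at 0 h, 380.2 and 395 at 3 h, 348 and 359 at 6 h and 204 and 269 at 12 h. Its log2 fold changes at 12 h were -1.12 and -0.76, both called.

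**Figure D3:**
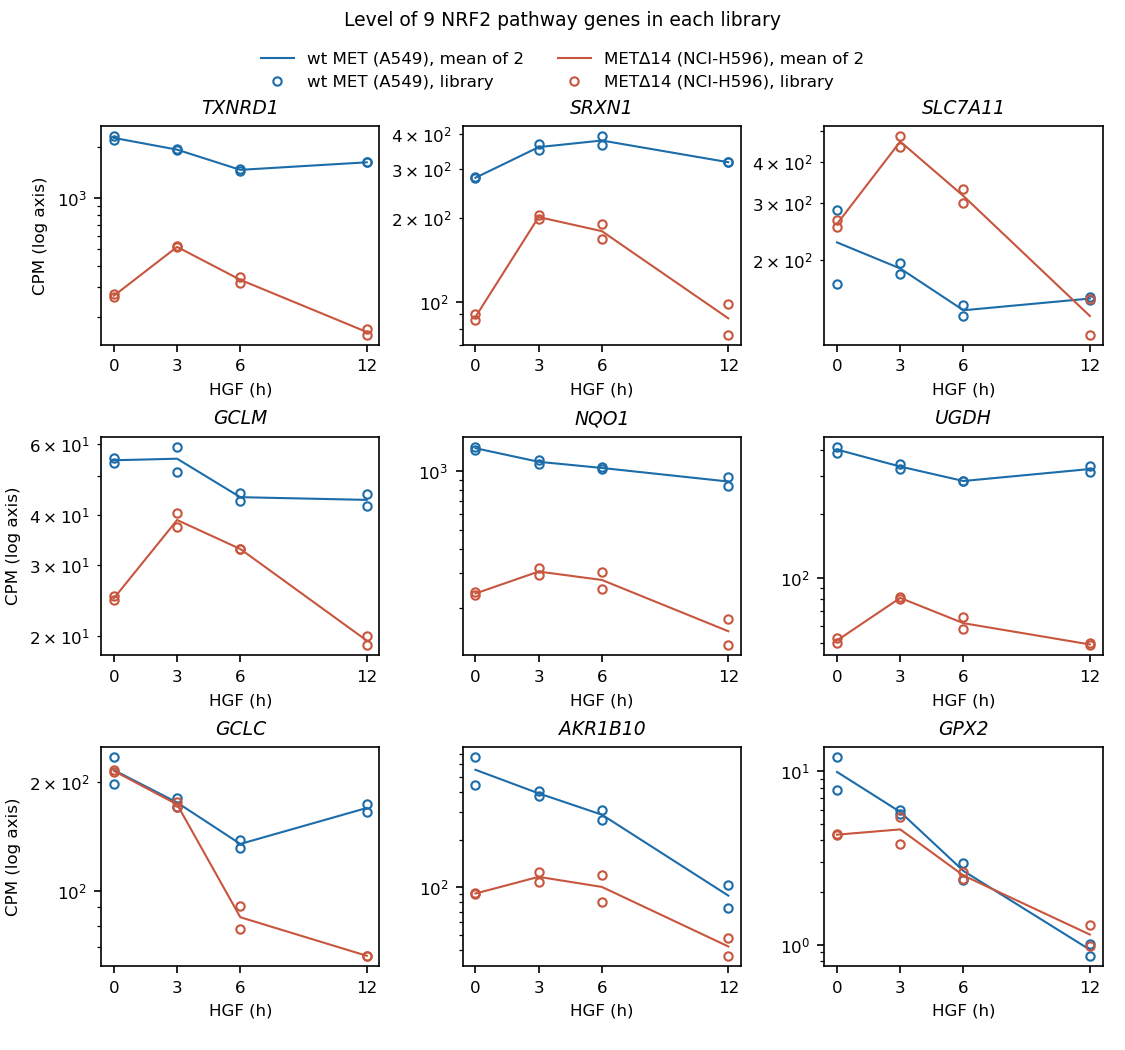
CPM on a log axis against hours of HGF for 9 genes, with 1 circle for each library and lines through the means of 2 replicates (blue, wt MET; red, MET∆14). TXNRD1, SRXN1, SLC7A11, GCLM, NQO1 and UGDH peak at 3 h in red, GCLC drops in red after 3 h (from 171 and 176 CPM to 90.6 and 78.4 at 6 h), and AKR1B10 and GPX2 descend in both colours to their lowest values at 12 h.

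Of the heme and iron genes, HMOX1 was at 46.9 and 48.6 CPM at 0 h, 51.9 and 51.2 at 3 h, 49.7 and 60.7 at 6 h and 50.3 and 41.3 at 12 h with wt MET, where no time was called. With MET∆14 it was at 4.5 and 5.61 CPM at 0 h, 6.35 and 4.81 at 3 h, 4.64 and 4.5 at 6 h and 2.46 and 3.99 at 12 h, on 45 and 43 counts at 12 h, and was called lower at that time (-0.73 ± 0.24, adjusted p = 0.0238). The 12 h libraries were the lowest of this line, although that of replicate 2 was close to those of 6 h, and the call was lost without replicate 2 of 0 h or replicate 1 of 12 h (highest log2 fold change -0.36). FTL and FTH1, the light and heavy ferritin chains, were lower at 12 h with MET∆14 (-0.49 ± 0.17, adjusted p = 0.0378 and -0.42 ± 0.14, adjusted p = 0.0305), where their replicates lay apart at 528 and 890.2 CPM and at 695 and 1061 CPM. Without replicate 1 of that time, neither was called (log2 fold changes of -0.16 and -0.15), and 6 and 11 of the 16 fits without 1 library kept the calls. With wt MET, FTH1 fell at 12 h (-0.50 ± 0.14, adjusted p = 0.013) and FTL was not called (-0.18 ± 0.17, adjusted p = 0.447). Genes on the other strand cover 63.2% of the FTH1 exon bases, and other genes hold 33.9% of its 50-base stretches and 18.5% of those of FTL.

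Of the exporters of conjugates, ABCC2 fell in both lines. In the MET∆14 line it went from 25.2 and 25.9 CPM at 0 h to 16.6 and 19.8 at 3 h, 14.4 and 11.4 at 6 h and 11.3 and 7.79 at 12 h (-1.39 ± 0.16, adjusted p = 9.83e-06). With wt MET it was at 511 and 429.8 CPM at 0 h, 384 and 359.6 at 3 h, 269 and 253 at 6 h and 315 and 314 at 12 h (-0.58 ± 0.12, adjusted p = 0.00192 at 12 h). All later libraries lay below the 0 h libraries of their line. ABCC1 was called lower with MET∆14 at 12 h (-0.34 ± 0.12, adjusted p = 0.0441), a call that 3 of the 16 fits without 1 library kept. ABCC3 was called lower with wt MET at 12 h (-0.56 ± 0.19, adjusted p = 0.0378) and not with MET∆14 (0.48 ± 0.20, adjusted p = 0.0737).

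OSGIN1, an inhibitor of growth induced by oxidative stress, rose at 3 h in both lines. Its wt MET libraries were at 97.6 and 117 CPM at 0 h, 155 and 145 at 3 h, 115 and 104 at 6 h and 96.8 and 88.5 at 12 h (0.49 ± 0.13, adjusted p = 0.0138 at 3 h). Its MET∆14 libraries were at 16.3 and 19.4 CPM at 0 h, 24.5 and 30.7 at 3 h, 15.9 and 12.2 at 6 h and 10.5 and 10.4 at 12 h. It rose at 3 h (0.63 ± 0.14, adjusted p = 0.00354) and fell at 12 h (-0.78 ± 0.16, adjusted p = 0.00143). The 3 h libraries were the highest of each line. Pirin, an iron-binding nuclear protein, fell at 12 h (log2 fold changes of -1.52 with wt MET and -1.72 with MET∆14).

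All 7 genes that rose at 3 h with MET∆14 (NQO1, GCLM, TXNRD1, SRXN1, SLC7A11, UGDH and OSGIN1) were lower at 12 h than at 3 h, and 5 of them (all but SRXN1 and UGDH) were also lower at 12 h than at 0 h. These genes were picked by their 3 h libraries, which enter the comparison with 12 h again, so a fall was favoured in advance. How many of all tested genes shared either pattern was not counted. Over the whole list, 31 of 34 genes were lower at 12 h than at 3 h with MET∆14 and 16 with wt MET, a comparison chosen with the data in view. The shares over all tested genes were 14.6% and 11.1%, and the median log2 fold changes of the list -0.80 and -0.32. TXN, KEAP1 and ABCC3 were the genes not called with MET∆14. Both 12 h libraries of MET∆14 enter these counts: without replicate 1, which was the lower one for 27 of the 34 genes, 26 genes were lower at 12 h than at 3 h and 23 lower than at 0 h, and without replicate 2 the counts were 32 and 31. Their part in the results was not tested beyond these counts.

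The response to HGF differed between the lines for 20 of the 34 genes in a test over the 3 times, beside 37.6% of all tested genes. At 3 h, 8 genes had a more positive fold change with MET∆14 and 1 a more negative one (NFE2L2), beside 8.93% and 8.47% of all tested genes. The numbers were 13 and 3 at 6 h (16.4% and 13.8%), and 4 and 4 at 12 h (13% and 11%). Among the genes called for a different response, those with the largest positive difference of the mean response were AKR1B10, GPX2 and TXN, and those with the largest negative one NFE2L2, GCLC and ME1. TXN differed by 0.84 ± 0.21, adjusted p = 0.00751 at 6 h and GPX2 by 1.47 ± 0.44, adjusted p = 0.0241 at 12 h. Leaving out the first wt MET replicate of 6 h, or the second MET∆14 replicate of 0 h, brought the count to 13. In an additive model of cell line and time, 25 of the 34 genes changed with time (30.6% of all tested genes). Of these, the mean response of GCLM and SRXN1 was positive and that of the other 23 negative. The test asks for a change at any time and not for a direction. The mean was near 0 for GCLM (0.013) and OSGIN1 (-0.015).

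Leaving out 1 library at a time, 27 of the 28 calls between the lines at 0 h were made in all 16 fits, the exception being GSR, lost without replicate 1 of wt MET at 0 h (log2 difference -0.22). At 12 h, 19 of 27 calls with wt MET and 21 of 30 with MET∆14 were made in all 16, and at 6 h 13 of 24 and 6 of 13. At 3 h the numbers were 0 of 10 with wt MET and 5 of 10 with MET∆14, where GCLM, TXNRD1, SRXN1, SLC7A11 and UGDH kept their rise. OSGIN1 lost its rise with MET∆14 without replicate 1 of 0 h or replicate 2 of 3 h (lowest log2 fold change 0.45). AKR1B10 lost its fall with MET∆14 at 12 h without replicate 1 of that time (-0.94).

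Outside the 34 genes, 55 further genes of the NRF2 pathway were in the table and 52 were tested. The 9 further regulators among them were MAFF, MAFG, MAFK, BACH1, NFE2L1, CUL3, RBX1, BTRC and SQSTM1. At 3 h, 8 of these were called with wt MET, 6 of them higher, and 7 with MET∆14, 6 of them higher (10.3% and 15.5% of all tested genes were called higher). MAFF, a small MAF protein, had mean levels of 24.3 ± 2.0 CPM (SD, n = 2) at 0 h and 104 ± 5.33 CPM at 3 h with MET∆14 (log2 fold change 2.10 ± 0.15, adjusted p = 9.4e-08), against 197 ± 51.9 CPM and 265 ± 6.54 CPM with wt MET (0.42 ± 0.13, adjusted p = 0.0384). MAFK rose at 3 h in both lines (0.95 ± 0.093, adjusted p = 5.9e-06 with wt MET, 0.77 ± 0.094, adjusted p = 1.75e-05 with MET∆14). BACH1, the competing repressor, rose with wt MET from 83.2 ± 2.28 CPM to 166 ± 0.527 CPM at 6 h (1.0 ± 0.078, adjusted p = 3.4e-07) and with MET∆14 at 3 h (0.39 ± 0.078, adjusted p = 0.0014). At 12 h, MAFF (0.45 ± 0.13, adjusted p = 0.0151) and BACH1 (0.67 ± 0.077, adjusted p = 1.97e-05) were called higher with wt MET, and MAFK (0.49 ± 0.093, adjusted p = 0.000849) with MET∆14.

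Of the 43 other targets tested, most that were called at 12 h were lower: 25 were lower and 1 higher with wt MET, and 26 were lower and 0 higher with MET∆14, beside 18.2% and 20.1% of all tested genes called lower. Their median log2 fold change was -0.50 and -0.43. CYP4F3, a fatty acid hydroxylase, fell at 12 h in both lines (-2.25 ± 0.16, adjusted p = 2.67e-07 with wt MET, -1.38 ± 0.16, adjusted p = 8.75e-06 with MET∆14). CYP4F11, its relative, rose at 3 h with MET∆14 (0.62 ± 0.11, adjusted p = 0.000511) and fell at 12 h with wt MET (-1.42 ± 0.14, adjusted p = 3.53e-06). GSTA4, a glutathione transferase, fell at 12 h in both lines (-1.58 ± 0.39, adjusted p = 0.00595 with wt MET, -1.80 ± 0.29, adjusted p = 0.000189 with MET∆14). TRIM6 fell at 6 h in both lines (-0.66 ± 0.17, adjusted p = 0.00858 with wt MET, -1.02 ± 0.17, adjusted p = 0.000224 with MET∆14). UGT1A1 fell with MET∆14 (-1.16 ± 0.19, adjusted p = 0.000314 at 12 h), and with wt MET its libraries held at most 5 counts, so no fold change is given there. UGT1A1 lies within the span of UGT1A6 on the same strand, and both end at the same base. Their overlap was not measured, so the counts of UGT1A1 are uncertain.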

How the data were processed

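RNA from cells expressing wt MET or MET∆14 was sequenced as above. The authors trimmed adapters, mapped reads to hg38 with STAR (2.5.0 in the submitters' processing notes, which also name RSEM 1.3.2) and deposited whole-number counts of reads per gene. The annotation and the use of strand in counting are not given in the sources used here. Columns were matched to samples by name, and 0 columns were left without a sample.

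From the deposited counts, genes were retained with edgeR's filterByExpr (minimum count 10, total 15), scaled by TMM, and fitted (R 4.3.3, edgeR 4.0.16, limma 3.58.1) by robust quasi-likelihood with 1 coefficient per condition over all 16 libraries, so that the conditions share 1 estimate of the spread (common biological coefficient of variation 0.0868). F tests gave genes changed at any time and genes whose response differed between the lines, and an additive model of line and time used the terms of the paper's DESeq2 formula, here in edgeR on these 2 lines alone. The Benjamini-Hochberg adjustment ran over all tested genes, with a threshold of 0.05. Error values beside log2 fold changes are standard errors. Alternatives were DESeq2 1.42.0, its size factors, no low-count filter, an absolute log2 fold change of at least 1, a replicate block, each line fitted alone, the AKR1C genes summed and each library left out in turn.

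On counts simulated for 14849 genes, with a 2-fold change of 200 of them in MET∆14 at 3 h, the matching test recovered 96.5% with 8 false calls, that of the line difference 86.5% with 4, and the additive model 26.5% with 1. With wt MET, where nothing was changed, 0 calls were made. The changed genes were drawn from those with higher mean counts, and the same spread was set for all genes and conditions. These figures therefore do not cover genes at low counts or the uneven 12 h replicates of MET∆14.

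Shared 50-base stretches and exon overlaps come from GENCODE 44, and promoter windows from RefSeq (GRCh38.p14). Genes with values in every library were 14 fixed ones, from NFE2L2 to OSGIN1, and the 3 largest rises, falls and differences between the lines among those called. Of the other pathway genes, the 3 largest rises and falls of each line were taken, of which 1 is not reported here. The members and lists were chosen with earlier results of these data known. Figures were drawn with matplotlib 3.10.9.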

Additional observations from a re-analysis of the deposited data

Results flagged for a closer look

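For 20 of the 34 genes, the response to HGF differed between cells expressing MET∆14 and cells expressing wt MET in edgeR's quasi-likelihood F test over the 3 differences, which is what marked them for a closer look. The adjusted p of that test was lowest for TXNRD1 (1.11e-06), NFE2L2 (4.31e-06) and GCLC (4.54e-06). It was 5.99e-05 for UGDH, 0.000176 for SRXN1, 0.000337 for GCLM, 0.000339 for ME1 and 0.000829 for SLC7A11. Values between 0.00386 and 0.0102 were found for TALDO1 (0.00386), ALDH3A1 (0.00637), NQO1 (0.00941) and AKR1B10 (0.0102). The remaining ones were PGD (0.0201), ABCC2 (0.0221), TXN (0.0269), OSGIN1 (0.0272), GPX2 (0.0298), ABCC3 (0.0458), PRDX1 (0.0483) and AKR1C3 (0.0486). Of all tested genes, 37.6% passed the same test. The difference is one between 2 cell lines, and whether it comes from the form of MET cannot be told apart from other differences between them.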

How the results depend on the processing

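Replicates number 2 per condition, which limits the precision, and the 12 h replicates of MET∆14 differed most. The count of 28 genes called between the lines at 0 h was 26 to 29 in every setting but a minimum absolute log2 fold change of 1, which gave 21. That minimum left 8 genes over time with wt MET, 9 with MET∆14, 7 with a different response and 7 in the additive model, 8 lower at 12 h with wt MET, 8 lower at 12 h with MET∆14, 1 higher at 3 h with MET∆14 and 12 lower at 12 h than at 3 h with MET∆14. Without the filter on low counts, 13 genes rather than 7 were higher at 3 h with MET∆14, and the cause was not tested. With 1 library left out, that number ranged from 5 to 12. It was 12 without replicate 1 or without replicate 2 of MET∆14 at 12 h, a condition that is not itself compared there. Whether those libraries act through the shared estimate of the spread or through the scaling of the libraries was not tested. The number of genes with a different response ranged from 13 to 26 with 1 library left out, the lowest being reached when replicate 1 of wt MET at 6 h or replicate 2 of MET∆14 at 0 h was removed. DESeq2, its size factors in edgeR, each line fitted alone and the summed AKR1C genes kept every such count within 1.5 times its value. Apart from the replicate block below, shares over all tested genes were not taken in these alternative settings.

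The replicate numbers did not pair the samples: the deviations of same-numbered libraries from their condition means correlated between -0.159 and 0.111 over 28 pairs of conditions. With a replicate block, 12026 rather than 12085 of all genes were called between the lines at 0 h, 5819 rather than 6079 over time with wt MET and 7857 rather than 8157 with MET∆14. Of the 34 genes, 17 rather than 20 then had a different response, beside 5377 rather than 5660 of all genes. The other 8 counts of the list were equal with and without the block.

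Reversals of direction touched uncalled values alone. The log2 difference of GCLC at 0 h was 0.0114 with DESeq2's size factors, 0.0113 with DESeq2 and 0.0138 without the filter. SRXN1 at 12 h with MET∆14 was 0.00368 with those size factors, 0.00362 with DESeq2 and 0.0153 with the line fitted alone, and EPHX1 at 3 h with MET∆14 was 0.00555 with the line fitted alone. With 1 library left out, the difference at 0 h ranged from -0.13 to 0.12 for GCLC, from -0.090 to 0.30 for TXN and from -0.14 to 0.62 for SLC7A11. The log2 fold change at 12 h with MET∆14 ranged from -0.42 to 0.16 for TXN, from -0.21 to 0.16 for SRXN1 and from -0.11 to 1.83e-05 for UGDH, and that at 12 h with wt MET from -0.21 to 0.076 for HMOX1 and from -0.47 to 0.43 for CBR3. At 3 h with MET∆14 it ranged from -0.084 to 0.32 for HMOX1, from -0.19 to 0.34 for GPX2 and from -0.12 to 0.031 for EPHX1.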

Other observations

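A few genes of the wider NRF2 pathway were at 0 counts in 1 of the lines at 0 h. They were picked out after their values had been seen. ALDH1A1, an aldehyde dehydrogenase of retinoid metabolism, was at 808 ± 173 CPM (SD, n = 2) with wt MET at 0 h and at 0 counts with MET∆14 (at most 1 count in any MET∆14 library), and with wt MET it fell at 12 h to 270 ± 16.3 CPM (log2 fold change -1.58 ± 0.12, adjusted p = 1.36e-06). NR0B1, an orphan nuclear receptor, was at 93 ± 13.3 CPM with wt MET at 0 h and had 0 counts in every MET∆14 library. UGT1A1, the bilirubin glucuronosyltransferase, stood the other way round at 0 h, with 15.9 ± 1.8 CPM with MET∆14 and 0 counts with wt MET, where the libraries after HGF held at most 5 counts. Because it lies within the span of UGT1A6, its counts are uncertain.

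At 12 h of HGF with MET∆14, replicate 1 was lower than replicate 2 for 27 of the 34 genes and higher for 7. At 3 h with MET∆14 replicate 1 was lower for 26 and higher for 8, and at 6 h it was higher for 30. Shares over all tested genes were not taken for these counts.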
